A study of Mus musculus with 10 samples.

Results

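The glucocorticoid receptor gene Nr3c1 and 9 genes that glucocorticoids are known to induce were followed in mouse heart RNA: Zbtb16, Fkbp5, Tsc22d3, Sgk1, Klf9, Klf15, Ddit4, Mt1 and Mt2. The 10 genes were taken by symbol from a table of 24888 genes, and each symbol matched 1 row. Hearts of 5 mice that overexpress SPOP through a Cre transgene driven by the cardiomyocyte promoter αMHC (Myh6), genotype CKI (SPOP_CKI), were compared with 5 hearts titled WT whose genotype is given as Myh6Cre (Cre_control). SPOP is the substrate adaptor of a cullin-3 ubiquitin ligase. All animals were described as male, 8 to 10 weeks old and under sham conditions, so the controls carry Cre as well, and the promoter limits Cre to cardiomyocytes while the RNA comes from heart tissue of mixed cell types. The labels do not say whether the numbered hearts of a group came from separate litters or days, so the spread behind each p-value is that between libraries and may be technical in part. Values are scaled reads (the read number of a gene after division by its library's size factor), with means ± SD for 5 libraries in each group. A gene was called when its adjusted p was under 0.05 in a limma model fitted to all 14212 genes with at least 10 scaled reads in at least 5 libraries, and all 10 genes passed that filter.

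Glucocorticoids are adrenal steroid hormones that enter the cell and bind the receptor, which is held ready in the cytoplasm by heat shock protein 90 and its cochaperones. The bound receptor moves to the nucleus, attaches to short palindromic DNA elements, raises transcription of genes such as those followed here, and dampens inflammatory genes. In heart muscle the hormone also adjusts fuel use and protein breakdown, and several of its target genes answer to other signals too, among them insulin, fasting, hypoxia, metals and the daily clock.

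Depth was 15316293 to 17114869 reads per library. The overexpressed gene Spop stood at 25308 to 40631 scaled reads in SPOP_CKI against 3078 to 3726 in Cre_control. Although all animals were labelled male, the 3 libraries Cre_control 5, SPOP_CKI 1 and SPOP_CKI 3 held 4491 to 6578 scaled reads of Xist and 0 of 4 Y-linked genes summed, whereas the other 7 held 0 to 5.3 of Xist and 2522 to 3860 of the Y-linked genes. Library SPOP_CKI 3 also stood apart from the rest. Its median correlation with the other libraries of its group was 0.819 on the log2 scale across genes, against 0.914 to 0.973 for the other 9 libraries. Over all genes tested, 22.3% were called, 12.3% lower and 10.0% higher in SPOP_CKI, and the median log2 fold change was -0.11.

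Of the 10 genes, 6 were lower and 0 higher in SPOP_CKI hearts, with a median log2 fold change of -1.24. The called genes were Ddit4, Zbtb16, Klf15, Klf9, Fkbp5 and Mt1. Nr3c1 itself was not called and had a positive difference. Counting tests on whole reads recovered from the table gave the same count, 6 lower and 0 higher, with DESeq2 and with edgeR, where 24.7% and 22.3% of all genes were called. In the authors' deposited table the 10 log2 fold changes ran from -2.66 for Ddit4 to 0.50 for Nr3c1, and the adjusted p was under 0.05 for the same 6 genes. For 5 of the 10 genes every SPOP_CKI library was below every control library, and 12.3% of all genes tested showed such a separation downward, 9.01% upward and 21.3% in either direction. Without SPOP_CKI 3, and likewise without the 3 libraries with Xist reads, 8 of the 10 were lower, Sgk1 and Tsc22d3 being added.

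**Figure D1:**
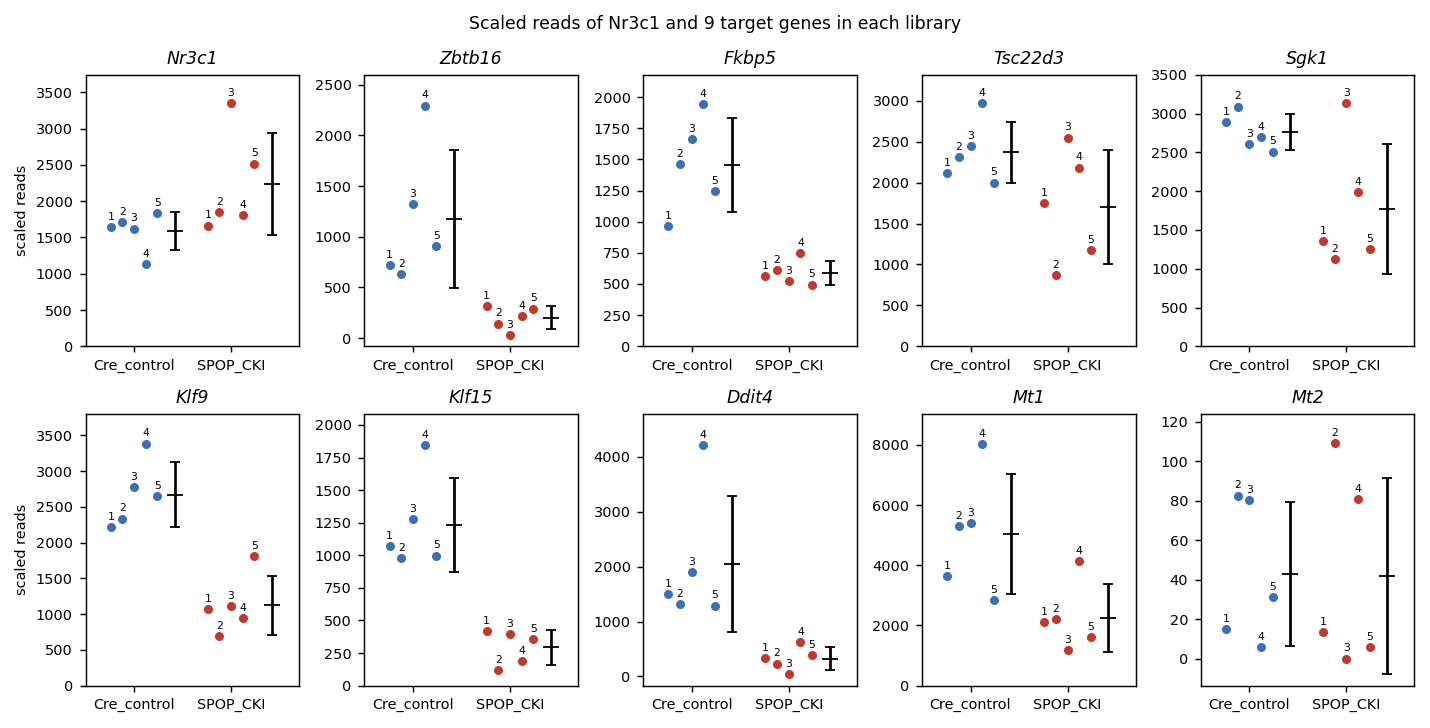
Scaled reads of Nr3c1 and 9 target genes (y axis, linear, 1 panel per gene) in each of 5 Cre_control (blue) and 5 SPOP_CKI (red) libraries; digits are library numbers, and the bar at the right of each group is the mean ± SD. Ddit4, Zbtb16, Klf15, Klf9 and Fkbp5 show no overlap between groups, whereas Nr3c1, Tsc22d3, Sgk1, Mt1 and Mt2 overlap.

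The receptor gene Nr3c1 (ENSMUSG00000024431, mm10 chromosome 18, 39410545 to 39491301, minus strand) was at 1640.4, 1707, 1622, 1135 and 1834 scaled reads in Cre_control 1 to 5. In SPOP_CKI 1 to 5 it was at 1662, 1850.4, 3358, 1805 and 2518. The highest values were those of SPOP_CKI 3 and SPOP_CKI 5, and the groups overlapped, since SPOP_CKI 1 and SPOP_CKI 4 were below Cre_control 5. The means were 2239 ± 707 against 1588 ± 266, and the log2 fold change of 0.46 (SE 0.22, 95% interval -0.01 to 0.93) did not pass (adjusted p = 0.142). Without SPOP_CKI 3 the log2 fold change was 0.30.

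Nr3c2 encodes the mineralocorticoid receptor, the sister receptor that also binds glucocorticoids. It was the lower of the pair in control hearts, at an RPKM (reads scaled by deposited gene length and library depth) of 3.18 ± 0.651 against 12.1 ± 1.64 for Nr3c1. In scaled reads Nr3c2 stood at 292 ± 156 in SPOP_CKI and 362 ± 80.4 in Cre_control, and its log2 fold change of -0.45 (SE 0.35) did not pass (adjusted p = 0.36). With array weights it passed, at -0.83 (adjusted p = 0.0423). The log2 ratio of Nr3c1 to Nr3c2 within a library was 1.90 to 2.72 in controls and 2.29 to 3.76 in SPOP_CKI. The mean ratio was higher by 0.92 in SPOP_CKI (3.06 ± 0.64 against 2.14 ± 0.33), with p = 0.0317 in an exact two-sided permutation test over 252 arrangements, where 0.0079 is the smallest p possible. The exact p rose to 0.0556 without any one of Cre_control 1, 4 and 5, where the difference was 0.89, 0.86 and 0.88, and to 0.0857 without the 3 libraries with Xist reads, where it was 1.01.

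Fkbp5 (ENSMUSG00000024222, chromosome 17, 28399094 to 28517527) encodes a cochaperone that binds the receptor complex and lowers its hormone affinity, and its induction by the receptor forms a short feedback loop. It was at 963, 1459, 1664, 1946 and 1242 scaled reads in Cre_control 1 to 5. In SPOP_CKI 1 to 5 it was at 564, 609, 524, 748 and 495. The highest SPOP_CKI library lay below the lowest control, and the spread among SPOP_CKI hearts was narrow. Mean Fkbp5 was 588 ± 99.5 in SPOP_CKI and 1455 ± 378 in the controls. It fell 2.43-fold (log2 fold change -1.28, SE 0.20), and its adjusted p of 0.00189 was the smallest of the 10 genes in this fit.

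Zbtb16 (ENSMUSG00000066687, chromosome 9, 48654297 to 48836222) encodes the zinc finger repressor PLZF, one of the genes most strongly induced by glucocorticoids in many tissues. It was at 722, 628, 1319, 2294 and 909 scaled reads in Cre_control 1 to 5, against 319, 144, 32.4, 220.4 and 290.5 in SPOP_CKI 1 to 5. All SPOP_CKI libraries were below all controls, with SPOP_CKI 3 the lowest. The means were 1174 ± 680.0 in controls and 201 ± 116 in SPOP_CKI, a 6.60-fold fall (log2 fold change -2.72, SE 0.59, adjusted p = 0.00884). Without SPOP_CKI 3 the log2 fold change was -2.16 (adjusted p = 0.00183), and with array weights, which count deviant libraries less, it was -2.02 (adjusted p = 0.00224).

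Klf15 (ENSMUSG00000030087, chromosome 6, 90462576 to 90475238) encodes a Kruppel-like factor that steers amino acid and lipid use in muscle and restrains cardiac hypertrophy. It was at 1072, 978, 1280.0, 1844 and 997 scaled reads in Cre_control 1 to 5 and at 420.1, 119, 395, 186 and 357 in SPOP_CKI 1 to 5. The groups did not overlap, and the lowest values were in SPOP_CKI 2 and SPOP_CKI 4. Klf15 fell 4.50-fold (log2 fold change -2.17, SE 0.35, adjusted p = 0.00218). Klf9 (ENSMUSG00000033863, chromosome 19, 23141226 to 23166911), a related factor induced by glucocorticoids and thyroid hormone, was at 2216, 2336, 2778, 3384 and 2647 in the controls. In SPOP_CKI 1 to 5 it was at 1072, 696, 1107, 948 and 1806. It fell 2.46-fold (log2 fold change -1.30, SE 0.23, adjusted p = 0.00354), with SPOP_CKI 5 nearest to the controls.

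The 250 bases before the RefSeq start of Klf15 are shown because they hold 2 E-boxes (CACGTG), the element bound by clock and other basic helix-loop-helix factors. At least 1 E-box was found in 6.02% of 32851 such windows of RefSeq starts on GRCm38.p6, the build of mm10, searched on both strands. The window of Fkbp5 and 1 window of Sgk1 held 1 E-box each. In capitals are the E-boxes of Klf15, at bases -228 to -167 from first to last, counted back from -1 just before the start. The Klf15 window lies at chr6:90462326-90462575 on the plus strand.
Klf15: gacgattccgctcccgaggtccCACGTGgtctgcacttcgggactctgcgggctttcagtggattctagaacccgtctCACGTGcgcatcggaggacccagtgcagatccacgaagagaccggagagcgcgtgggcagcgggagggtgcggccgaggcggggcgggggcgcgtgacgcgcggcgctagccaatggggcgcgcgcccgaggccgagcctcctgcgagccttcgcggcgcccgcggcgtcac

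Ddit4 (ENSMUSG00000020108, chromosome 10, 59949669 to 59951834) encodes REDD1, an inhibitor of the mTOR complex that glucocorticoids, hypoxia and energy stress induce. It was at 1496, 1312, 1904, 4219.5 and 1291.5 scaled reads in Cre_control 1 to 5 and at 339.7, 233, 42.9, 621 and 385 in SPOP_CKI 1 to 5. Every SPOP_CKI library was below every control, and the ends of the range were Cre_control 4 and SPOP_CKI 3. Mean Ddit4 was 324 ± 212 in SPOP_CKI and 2045 ± 1240.4 in controls, a 7.54-fold fall (log2 fold change -2.91, SE 0.63, adjusted p = 0.00896). The log2 fold change was -2.30 without SPOP_CKI 3 (adjusted p = 0.00135), -2.03 with array weights (adjusted p = 0.00216) and -2.29 with centring by GC content (adjusted p = 0.00618).

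Sgk1 (ENSMUSG00000019970, chromosome 10, 21882184 to 21999903) encodes a kinase that promotes sodium transport and cell survival and was named for its induction by serum and glucocorticoids. It was at 2894, 3091, 2606, 2701 and 2511 scaled reads in Cre_control 1 to 5, a narrow range. In SPOP_CKI 1 to 5 it was at 1352, 1122, 3134, 1987 and 1254. Of these libraries 4 were below all controls, and SPOP_CKI 3 was above all controls. The log2 fold change was -0.75 (SE 0.25, 95% interval -1.30 to -0.19) and just missed the threshold (adjusted p = 0.0551). It passed without SPOP_CKI 3 (log2 fold change -0.98, adjusted p = 0.00172) and without the 3 libraries with Xist reads (-1.0, adjusted p = 0.00747).

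A RefSeq start of Sgk1 is shown because the 250 bases before it hold a full glucocorticoid response element. The motif searched was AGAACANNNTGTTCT, which reads the same on both strands, and a relaxed form, GNACANNNTGTNC, which every full element also matches. RefSeq windows were found for 8 of the 10 genes, 15 windows in all, and Nr3c1 and Zbtb16 were the genes without one. The full element occurred in this 1 of the 15 windows and in 3 of all 32851 windows (0.00913%), and a single arm, AGAACA, in 16.1%. Sgk1 had windows at several starts, and those not shown held neither the full nor the relaxed form. The window shown is chr10:21993640-21993889 on the plus strand, with the element in capitals at bases -189 to -175.
Sgk1: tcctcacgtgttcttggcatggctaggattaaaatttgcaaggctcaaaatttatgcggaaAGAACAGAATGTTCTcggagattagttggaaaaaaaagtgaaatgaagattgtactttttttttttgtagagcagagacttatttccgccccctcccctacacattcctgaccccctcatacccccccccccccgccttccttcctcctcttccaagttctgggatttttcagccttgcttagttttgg

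Tsc22d3 (ENSMUSG00000031431, chromosome X, 140539528 to 140600659) encodes GILZ, a leucine zipper protein that carries part of the anti-inflammatory action of the hormone. It was at 2116, 2309.8, 2450.0, 2971 and 2002 scaled reads in Cre_control 1 to 5 and at 1751, 867, 2551, 2184 and 1177 in SPOP_CKI 1 to 5. The groups overlapped, with SPOP_CKI 3 and SPOP_CKI 4 inside the control range and SPOP_CKI 2 the lowest. The log2 fold change was -0.57 (SE 0.27, 95% interval -1.17 to 0.03, adjusted p = 0.155). It passed without SPOP_CKI 3 (-0.74, adjusted p = 0.0347) and without the 3 libraries with Xist reads (-0.90, adjusted p = 0.0366).

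Mt1 (ENSMUSG00000031765, chromosome 8, 94179082 to 94180327) encodes a metallothionein, a small cysteine-rich protein that binds zinc and copper and is induced by metals as well as by glucocorticoids. It was at 3639.5, 5293, 5398, 8018 and 2829 scaled reads in Cre_control 1 to 5, against 2111, 2206, 1168, 4144 and 1601 in SPOP_CKI 1 to 5. SPOP_CKI 4 lay inside the control range and the other 4 below it. Mt1 fell 2.31-fold (log2 fold change -1.21, SE 0.35, adjusted p = 0.0303). That call was the least steady of the 6. It was lost without Cre_control 2, 3 or 4 (log2 fold changes -1.16, -1.16 and -1.01, adjusted p = 0.0683, 0.0664 and 0.0785) and without SPOP_CKI 5 (-1.12, adjusted p = 0.0588). It was also lost with array weights (-0.71, adjusted p = 0.0921), where the fold is smaller, and when libraries were centred by transcript GC content (-0.81, adjusted p = 0.0767).

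Mt2 (ENSMUSG00000031762, chromosome 8, 94172664 to 94173568), the neighbouring metallothionein gene 5513 bases away, was at 14.9, 82.6, 80.5, 5.77 and 31.1 scaled reads in Cre_control 1 to 5. In SPOP_CKI 1 to 5 it was at 13.6, 109, 0, 81 and 5.9. Both groups spanned nearly the same range, and their means were 43.0 ± 36.4 in controls and 41.9 ± 49.7 in SPOP_CKI. No difference passed (log2 fold change -0.94, SE 1.24, adjusted p = 0.605). The estimate depended on how low values were treated, at -0.03 with DESeq2, -0.02 with edgeR, -0.08 with quantile normalization and -0.51 with a pseudocount of 5. The sign turned without SPOP_CKI 3 (log2 fold change 0.05), the library at 0, and leaving out SPOP_CKI 2 or SPOP_CKI 4 gave -1.64 or -1.54. Mt1 and Mt2 are close copies, and the antisense gene Gm45774, at 3.97% of the Mt2 level, overlaps Mt2. The level of Mt2 is uncertain, and the part of shared or overlapping reads in it was not tested.

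The upstream windows of the metallothionein pair are shown to set them side by side. For Mt1 the capitals mark the 1 match to the relaxed glucocorticoid element, found in 0.387% of all windows, at bases -94 to -82 before the RefSeq start. For Mt2, with no match to that element, they mark 5 matches to the core of the metal response element, TGCNCNC on either strand, which 44.4% of all windows hold. The Mt1 window also holds 1 match to that metal core, left in lower case. The windows are chr8:94178839-94179081, 243 bases ending before the deposited gene start, and chr8:94172368-94172617, both on the plus strand.
Mt1: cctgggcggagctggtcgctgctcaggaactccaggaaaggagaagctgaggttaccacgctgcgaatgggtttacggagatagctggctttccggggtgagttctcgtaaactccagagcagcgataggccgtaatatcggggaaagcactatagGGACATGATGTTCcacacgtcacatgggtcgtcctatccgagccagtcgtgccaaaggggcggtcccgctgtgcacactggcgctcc
Mt2: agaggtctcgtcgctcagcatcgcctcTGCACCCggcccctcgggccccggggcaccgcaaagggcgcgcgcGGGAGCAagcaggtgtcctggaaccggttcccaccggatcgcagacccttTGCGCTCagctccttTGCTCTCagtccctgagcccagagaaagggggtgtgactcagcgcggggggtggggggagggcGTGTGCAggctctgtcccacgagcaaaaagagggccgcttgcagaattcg

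**Figure D2:**
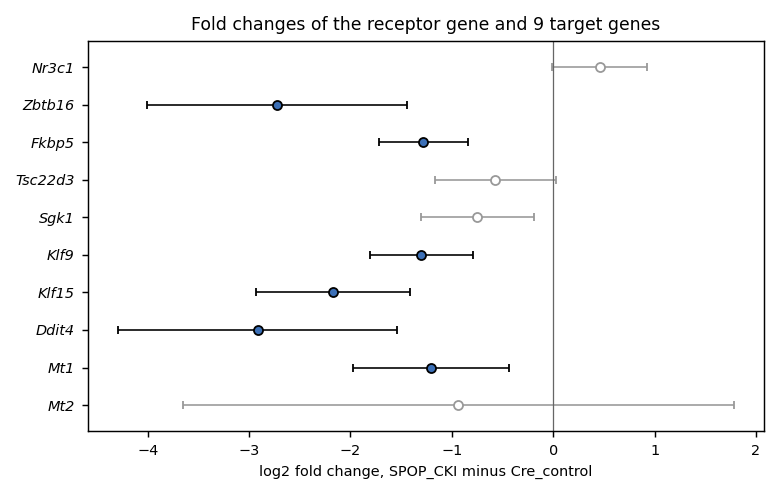
Log2 fold change, SPOP_CKI minus Cre_control (x axis), of each of the 10 genes with its 95% interval from limma; filled points passed at an adjusted p under 0.05 and open grey points did not. Of the 10 genes, 6 lie to the left with filled points, from Ddit4 at -2.91 to Mt1 at -1.21, and Nr3c1 is at 0.46.

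Scaled by the deposited gene length, the order of levels in control hearts was led by Mt1, at an RPKM of 234 ± 104. Ddit4 (68.0 ± 45.6) and Klf9 (47.0 ± 10.2) came next and did not differ beyond the SD of Ddit4. Sgk1 (32.2 ± 3.02), Tsc22d3 (31.3 ± 6.46) and Klf15 (25.5 ± 8.85) lay lower, and neighbours among these 3 did not differ beyond their SDs. Zbtb16 (12.9 ± 8.23) and Nr3c1 (12.1 ± 1.64) were alike within their SDs, ahead of Fkbp5 (8.83 ± 2.62) and Mt2 (4.09 ± 3.44).

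Among the control hearts, Cre_control 4 had the highest value of the 5 controls for 7 of the 9 targets (all but Sgk1 and Mt2) and the lowest for Nr3c1. The median difference from the control mean over the 9 targets was 0.46 in that library on the log2 scale and -0.29 to 0.10 in the other controls. For 32 other induced genes the corresponding median was 0.41 in Cre_control 4 and -0.19 to 0.07 in the other controls. In SPOP_CKI the libraries did not line up that way. SPOP_CKI 3 had the lowest values of Zbtb16, Ddit4, Mt1 and Mt2 and the highest of Sgk1, Tsc22d3 and Nr3c1, whereas SPOP_CKI 2 was lowest for Klf15, Klf9, Sgk1 and Tsc22d3. Without Cre_control 4 the calls of Zbtb16, Fkbp5, Klf9, Klf15 and Ddit4 held, with log2 fold changes of -2.44, -1.17, -1.21, -2.01 and -2.61.

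**Figure D3:**
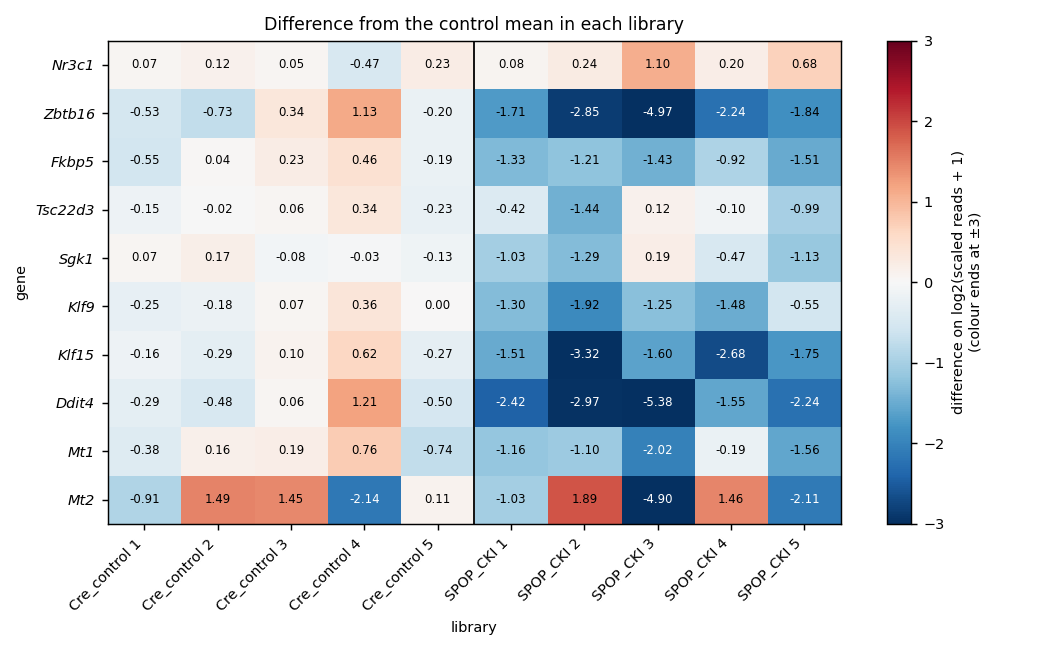
Difference of each gene (rows) in each library (columns) from the mean of the 5 controls on log2(scaled reads + 1); blue is below and red above the control mean, and the colour scale ends at ±3 while the printed values do not. Cre_control 4 reads 1.13 for Zbtb16 and 1.21 for Ddit4, and SPOP_CKI 3 reads 0.19 for Sgk1 against -5.38 for Ddit4.

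The proteins that hold and assist the receptor were examined next, in a list of 26 chaperones, coregulators and Nr3c2. Of these, 6 rose and 4 fell, with a median of 0.02, where 10.0% of all genes were higher and 12.3% lower. Hsp90aa1, the inducible isoform of the receptor's main chaperone, had means of 8701 ± 2546 in SPOP_CKI and 1936 ± 527 scaled reads in controls, a 4.49-fold rise (log2 fold change 2.17, SE 0.24, adjusted p = 0.000409). Single SPOP_CKI libraries lay between 6412 and 12775 and single controls between 1269 and 2714, so the groups did not overlap. The more abundant constitutive isoform Hsp90ab1, named after its values were seen, was at 21434 ± 1576 in SPOP_CKI and 19716 ± 1594 in controls and did not pass (log2 fold change 0.12, adjusted p = 0.569). Hspa8, the constitutive Hsp70 that loads the receptor, rose 2.16-fold, and Ptges3, the p23 cochaperone that stabilises the hormone-binding state, rose 1.69-fold (adjusted p = 0.0017 and 0.00563). The mediator subunit gene Med14 rose 1.54-fold (adjusted p = 0.00984), a call that GC centring ended (log2 fold change 0.41, adjusted p = 0.0516).

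Fkbp4, whose product competes with that of Fkbp5 for the receptor complex and favours nuclear transfer, was at 1796 ± 569 in SPOP_CKI and 3493 ± 759 in controls, a 1.98-fold fall (adjusted p = 0.0126). Cdc37, Stub1 and Ppp5c, named after their values were seen because so few fell, completed the lower group. In a fit that centred libraries by GC content, an alternative added with the data in view, 0 of the 26 were lower and 5 higher, and Fkbp4 was at -0.59 on the log2 scale (adjusted p = 0.118).

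**Figure D4:**
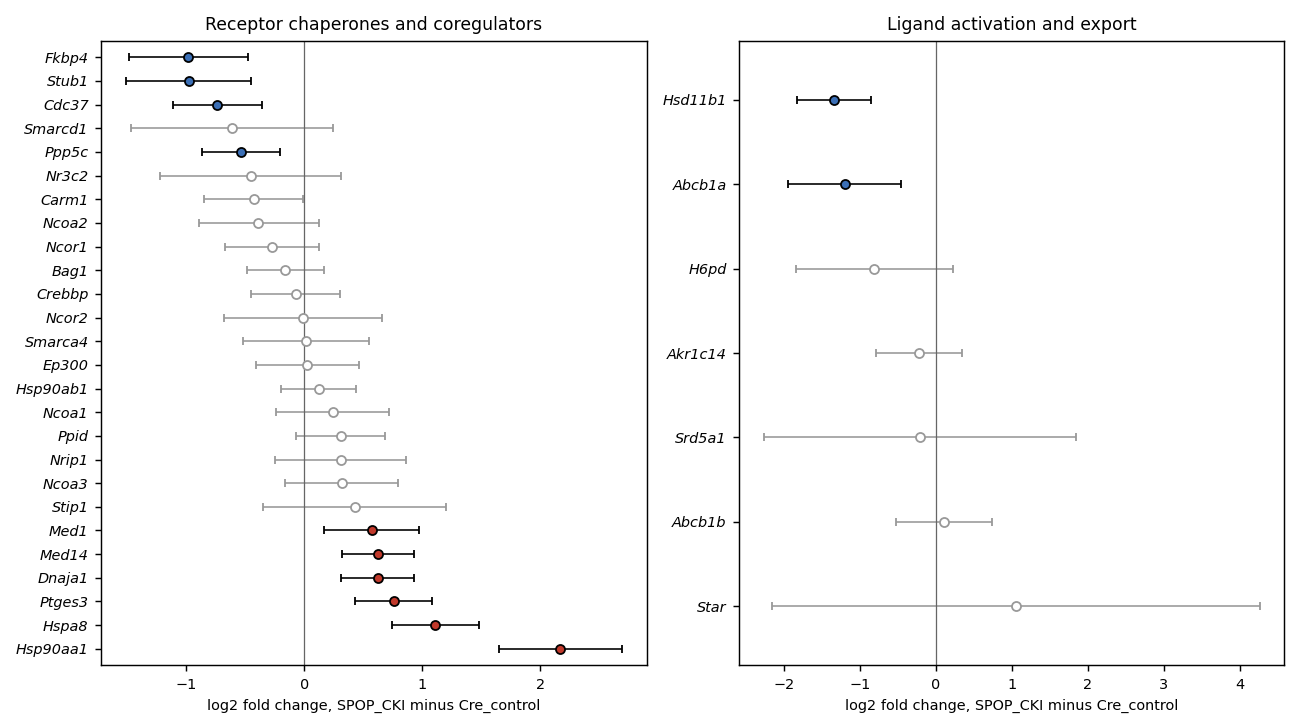
Log2 fold change with 95% interval (x axis, SPOP_CKI minus Cre_control) of 26 genes of receptor chaperones and coregulators (left) and of the 7 tested genes of ligand handling (right); filled points passed at an adjusted p under 0.05. Hsp90aa1 at 2.17 lies farthest right and Fkbp4 at -0.99 farthest left among the chaperones, and Hsd11b1 at -1.34 is the lowest of the ligand genes.

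Local supply of hormone depends on enzymes that make or remove active steroid and on pumps that expel it. Of 12 genes of this kind, 7 could be tested, 2 fell and 0 rose, where 12.3% of all genes were lower. The median was -0.22. Hsd11b1, the enzyme that regenerates active glucocorticoid inside cells, was at 470.1, 532, 558, 688 and 484 scaled reads in Cre_control 1 to 5 and at 209, 259, 319, 138 and 184 in SPOP_CKI 1 to 5. The groups did not overlap and Hsd11b1 fell 2.54-fold (log2 fold change -1.34, SE 0.22, adjusted p = 0.00263). The groups overlapped for Abcb1a, a P-glycoprotein gene of vessel walls that exports steroids, which fell 2.30-fold (adjusted p = 0.0269). That call did not hold when Cre_control 2, 3, 4 or 5 or SPOP_CKI 4 was left out (log2 fold changes -1.23, -1.15, -1.12, -1.19 and -1.09), each leaving 1 gene lower. Without SPOP_CKI 3, 1 gene of the list was higher.

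A list of 32 other genes known to be induced by glucocorticoids had 17 lower and 0 higher, where 12.3% of all genes were lower. Its median log2 fold change was -0.98, and the list was chosen with earlier results of these data known. Pdk4, which spares pyruvate and is a classical fasting and glucocorticoid target, stood at 52127 ± 16049 scaled reads in controls and 3031 ± 2060.5 in SPOP_CKI and fell (log2 fold change -4.29, adjusted p = 0.000241). Arrdc2, an arrestin-domain gene, fell 7.52-fold, the sulfotransferase gene Sult1a1 7.13-fold and the glutamine synthetase gene Glul 3.16-fold (adjusted p = 0.000541, 0.000618 and 0.000561). Per1, a clock gene with a receptor element of its own, fell 3.52-fold (log2 fold change -1.82, adjusted p = 0.0146), with -1.04 on that scale without the 3 libraries with Xist reads and -1.18 with GC centring. Arrdc2 was at -2.03 with GC centring (adjusted p = 0.0116). These 5 genes showed no overlap between groups, where 12.3% of all genes tested were separated downward. They were named for a small p, which favours such a separation. The list also holds 15 genes that did not pass. The number lower was 14 to 18 when single libraries were left out, and the number higher was 2 without SPOP_CKI 1 and 1 without Cre_control 4 or SPOP_CKI 5.

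Inflammatory genes that glucocorticoids are known to restrain had 3 of 14 tested higher and 0 lower, with a median of 0.69, where 10.0% of all genes were higher. Ccl7 and Ccl2, chemokines that draw monocytes, rose 24.3-fold and 9.65-fold, and the endothelial adhesion gene Vcam1 rose 3.21-fold (adjusted p = 0.00204, 0.0068 and 0.00651). The log2 fold changes of Ccl7 and Ccl2 were 4.60 and 3.27 in this fit and 5.24 and 3.86 with DESeq2. Ccl7 was at 4.81 to 26.8 scaled reads in controls. In SPOP_CKI 1 to 5 it was at 180, 1515, 281, 731 and 80.3, so the size of the rise differed widely between hearts. Without SPOP_CKI 3, 7 of the 14 were higher, and without the 3 libraries with Xist reads 9 were. The median difference from the control mean over the list was 2.62 in SPOP_CKI 2, 2.24 in SPOP_CKI 4 and -1.46 in SPOP_CKI 3.

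**Figure D5:**
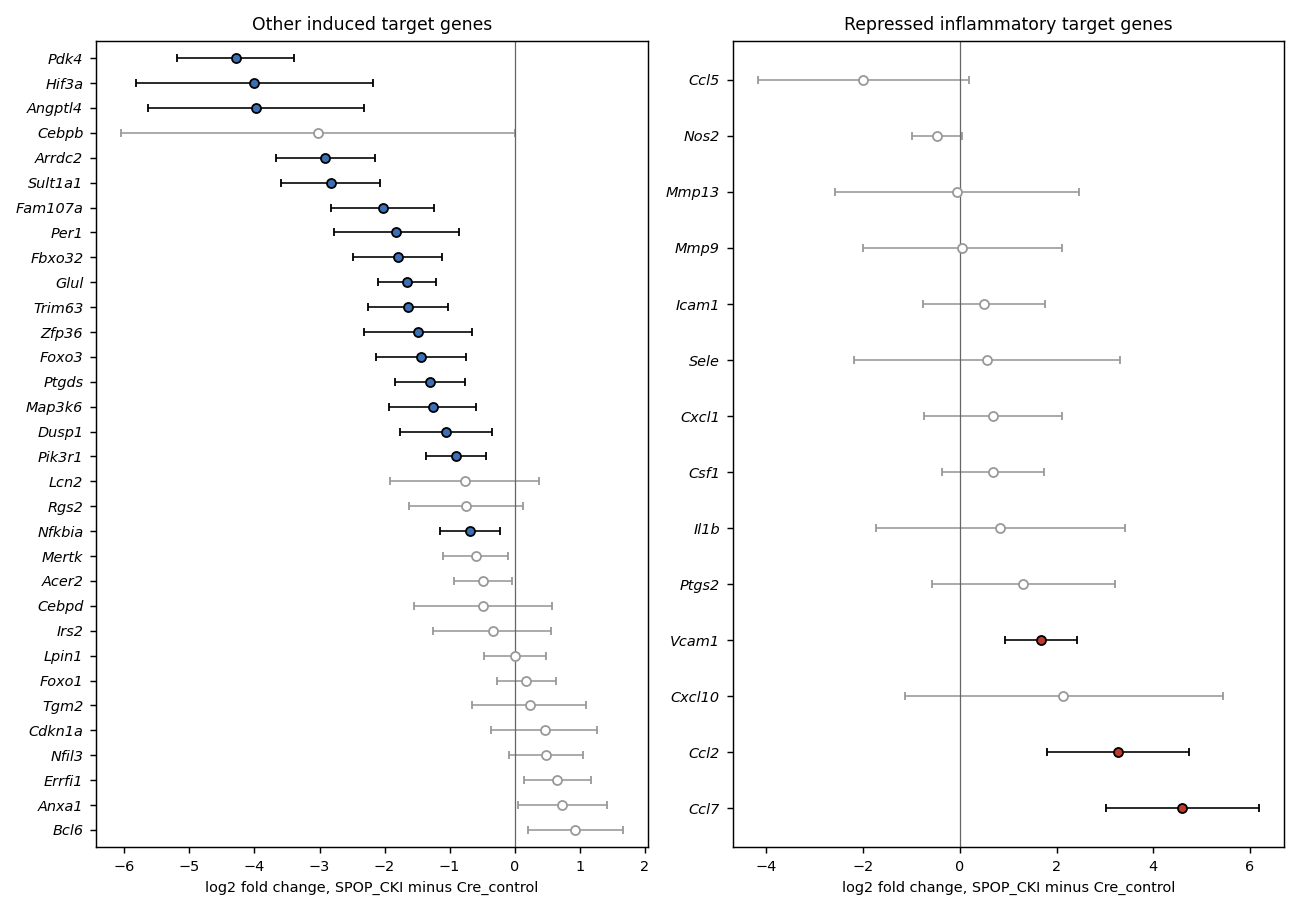
Log2 fold change with 95% interval (x axis, SPOP_CKI minus Cre_control) of 32 other induced target genes (left) and 14 repressed inflammatory targets (right); filled points passed at an adjusted p under 0.05, blue lower and red higher. On the left 17 filled points lie below 0, with Pdk4 at -4.29, and on the right the 3 filled points lie above 0, with Ccl7 at 4.60.

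Genes of amino acid breakdown and fuel use, several of them known targets of KLF15, had 12 of 13 lower and 0 higher. The median was -1.38, and 12.3% of all genes were lower. Prodh, the first enzyme of proline breakdown, fell 6.10-fold, with 64.2 ± 27.4 scaled reads in SPOP_CKI and 377 ± 69.5 in controls (log2 fold change -2.61, adjusted p = 0.000326). Bckdha and Bckdhb of the branched-chain ketoacid dehydrogenase and Ivd of leucine breakdown fell 4.63-fold, 2.69-fold and 3.10-fold (adjusted p = 0.000634, 0.00183 and 0.00084). With GC centring Bckdha was at -1.57 on the log2 scale (adjusted p = 0.00145).

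Among 11 tested paralogs of the 10 genes, 4 fell and 0 rose, where 12.3% of all genes were lower. The median was -0.45. Klf11 and Klf10, Kruppel-like factors induced by transforming growth factor beta, fell 3.86-fold and 2.37-fold (adjusted p = 0.000412 and 0.00359). Klf11 was at 454 to 649 scaled reads in controls and 106 to 214 in SPOP_CKI. Tsc22d4 fell 2.12-fold (adjusted p = 0.0272), which did not hold when Cre_control 1, 2 or 3 was left out (log2 fold changes -1.0, -1.05 and -1.11), and the other was Fkbp4. With the GC centring 2 of the 11 were lower, and Tsc22d4 was at -0.46 (adjusted p = 0.0988).

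Genes of metal sensing and zinc transport, set beside the metallothioneins, had 3 of 8 tested higher and 0 lower. The median was 0.05, and 10.0% of all genes were higher. The zinc importer genes Slc39a14 and Slc39a10 rose 2.50-fold and 1.72-fold (adjusted p = 0.00135 and 0.00935), and Slc39a10 did not pass with GC centring (log2 fold change 0.38, adjusted p = 0.137). Mtf1, the metal sensor that drives metallothionein transcription, rose 1.51-fold from 241 ± 22.7 to 364 ± 42.2 (adjusted p = 0.0161), and it did not pass with no filter on low values (adjusted p = 0.0556). The groups did not overlap for these 3 genes, named for a small p, where 9.01% of all genes tested were separated upward. Mt1 moved the opposite way.

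RNA of heart tissue was measured, and fewer cells of a type and less RNA per cell cannot be told apart. The shares to set beside the marker counts were 12.3% of all genes lower and 10.0% higher. Ventricular cardiomyocyte markers had 4 of 9 lower and 1 higher, with summed levels of 611887 to 817930.1 scaled reads in controls and 347065 to 654982 in SPOP_CKI. Of 5 atrial markers 2 were tested, with 1 higher, Nppa (log2 fold change 3.22), and 0 lower. The atrial marker Myl7 had medians of 6.73 in controls and 6.61 in SPOP_CKI, but its highest libraries were at 1107.8 and 291.8. Whether the share of atrium differed between libraries was not tested. Endothelial markers had 4 of 8 lower and 0 higher, and their sums did not overlap (45538 to 60920.0 against 19973 to 32306). Much of that sum was Fabp4, at 23284 ± 6106 in controls and 5423 ± 3642 in SPOP_CKI. Tie1, Cdh5 and Pecam1 were also called lower (log2 fold changes -1.08, -0.91 and -0.48), while Kdr, Tek, Emcn and Flt1 did not pass (-0.21, 0.01, 0.24 and -0.06). Erythroid markers had 4 of 5 tested lower, with sums of 13997 to 28131 against 5317 to 8897, and neutrophil markers had 3 of 3 tested higher, with sums of 54.4 to 173 against 164 to 708. Fibroblast and macrophage markers had 1 of 8 and 2 of 8 higher and 0 lower, with overlapping sums (56003 to 73105 against 55155 to 125500, and 5763 to 9942 against 5575 to 27136). Some of these counts moved with single libraries. Neutrophil markers higher numbered 0 without Cre_control 1, 3 or 4 or SPOP_CKI 4 and 1 without SPOP_CKI 2, and macrophage markers higher numbered 1 without any one of the 5 controls or SPOP_CKI 2, 3 or 4. Fibroblast markers higher numbered 2 without SPOP_CKI 1 and 3 without SPOP_CKI 3. The 1 ventricular cardiomyocyte marker that was higher was not called without Cre_control 3 or 4 or SPOP_CKI 1 or 4, and 6 were lower without SPOP_CKI 5. The part of these cell types in the changes of the target genes was not tested. Adrenal cortex markers summed to 0 to 845 in SPOP_CKI and 32.9 to 56.8 in controls, and 1 of 6 was tested. That gene, Star, was at 289 ± 340 scaled reads in SPOP_CKI and 38.2 ± 7.32 in controls. Star did not pass (limma, log2 fold change 1.06, adjusted p = 0.621). Adipocyte markers summed to 0 to 98.5 in SPOP_CKI and 5.36 to 143 in controls.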

How the data were processed

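Poly(A) RNA of 10 hearts was sequenced, 5 per group, and samples were grouped by title and genotype in the labels. The submitters' processing notes name featureCounts 1.5.0-p3, DESeq2 1.20.0 and the build mm10. No aligner, annotation release or strand setting is given in those sources. For each library the authors deposited a scaled signal, that is, gene reads after division by a size factor. Dividing by the value of 1 read gave whole reads for 100% of values (tolerance 0.001). The authors also deposited group means, a log2 fold change, p-values and gene lengths per gene. Their p-values were not used for calls.

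limma 3.58.1 (R 4.3.3; trend, robust) was run on log2(value + 1) with a genotype term, two-sided, in 14212 genes, and Benjamini-Hochberg adjustment over all of them. Folds are on that log2(value + 1) scale, and those of low genes depend on the pseudocount. DESeq2 1.42.0 and edgeR 4.0.16 were run on recovered reads. Other alternatives were TMM, quantile normalization, no filter, pseudocounts of 0.5 and 5, array weights, the replicate block, leaving out libraries, and, added after the data were seen, centring in 20 bins of transcript GC content (GENCODE M21, 99.9% of tested genes). The limma fit was tested on simulated data, and the other steps were not. All pairs of libraries within a group differed by more than counting noise (smallest chi-square 12.7 per degree of freedom).

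The 10 genes, the 8 pathway lists and the 13 marker lists were chosen with earlier results of these data known. Named genes are the 10, Spop, Nr3c2, up to 4 called genes with the smallest p per list (the 2 smallest where fewer than 2 passed), and the 3 genes nearest in pattern to Nr3c1 and to the gene with the smallest adjusted p. Promoter sequences are those of RefSeq on GRCm38.p6.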

Additional observations from a re-analysis of the deposited data

Results flagged for a closer look

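Ddit4 in Cre_control 4, at 4219.5 scaled reads, lay far above the other 4 controls, which were at 1291 to 1904, the gap to the nearest being 0.79 of the group's whole range (critical ratio 0.71 for 5 values). Chance alone marks about 1 group in 20 in this way, and 20 groups of 5 were examined. Without Cre_control 4 the log2 fold change of Ddit4 was -2.61 (limma, adjusted p = 0.0247).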

How the results depend on the processing

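Over 21 alternatives, the calls of Fkbp5, Klf15, Klf9, Zbtb16 and Ddit4 and their direction held in each. For the 10 genes, 194 values kept direction and call, 6 lost a call (all Mt1), 7 gained one (Sgk1 and Tsc22d3) and 3 turned sign, all Mt2, at 0.26 with array weights, 0.05 without SPOP_CKI 3 and 0.44 without the 3 libraries with Xist reads (-1.64 to 0.05 without single libraries). For the 29 other named genes, 593 were kept, 15 lost a call, 1 gained one and 0 turned.

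The number of the 10 genes lower was 5 to 8, and the number higher 0, when single libraries were left out. In the same fits, lower and higher counts were 3 to 5 and 5 to 7 for chaperones and coregulators, 1 to 2 and 0 to 1 for ligand handling, 14 to 18 and 0 to 2 for other induced targets, 4 to 7 and 0 to 2 for clock genes, 3 to 4 lower for paralogs, 3 higher and 0 lower for metal handling, 11 to 13 lower for the KLF15 list and 3 to 7 higher for repressed targets. Genes of ligand handling higher numbered 1 with DESeq2, with array weights and without the libraries with Xist reads. Other induced targets higher numbered 2 with DESeq2, edgeR, quantile normalization, the replicate block, GC centring and without the libraries with Xist reads, and 3 with array weights. Repressed targets higher numbered 7 with DESeq2, 9 with array weights and 9 without the libraries with Xist reads. Clock genes higher numbered 2 with DESeq2, quantile normalization, array weights and without the libraries with Xist reads, and 0 with GC centring. GC centring left 0 chaperones and coregulators and 2 paralogs lower, and 2 genes of metal handling were higher with GC centring and with no filter. The cause was not tested.

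The titles number hearts 1 to 5 in both groups, and the labels do not say whether equal numbers were matched. The correlation of deviations between same-numbered hearts was 0.03 to 0.16, and 2 of 5 SPOP_CKI libraries were closest to their own number. Whether same-numbered hearts were handled together was not tested. With the replicate block 6 of the 10 genes were lower and 0 higher. The Nr3c1 to Nr3c2 ratio differed by 0.92 with the replicate block (exact sign-flip p = 0.0625, the smallest 5 pairs allow), by 1.01 without the libraries with Xist reads, and by 0.74 to 1.11 without single libraries. Mt2 had the fewest reads of the 10 genes, 0 to 132 per library, and whether depth limits its test was not examined.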

Other observations

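Of 16 core clock and clock-output genes, 6 fell and 1 rose in SPOP_CKI, where 12.3% of all genes were lower and 10.0% higher, and the median log2 fold change was -0.98. With the replicate block 8 were lower. Tef, a clock-output factor, fell 2.32-fold, Nr1d1, the repressor REV-ERB alpha, fell 2.37-fold and Dbp fell 4.44-fold (limma, adjusted p = 0.00506, 0.00896 and 0.0183). With GC centring Nr1d1 and Dbp did not pass (-0.73 and -1.63 on the log2 scale). Dbp overlapped between groups, at 285 to 1939 scaled reads in controls and 58.4 to 342 in SPOP_CKI. The number lower was 4 without Cre_control 1 or SPOP_CKI 4, and the number higher was 0 without Cre_control 1, 2 or 4 and 2 without Cre_control 5 or SPOP_CKI 3. The time of day of harvest is not stated in the labels, and its part in these values was not tested.

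Likeness of pattern was measured as the root-mean-square difference of standardised log2 values over the 10 libraries, where 0 is identity. The protein-coding genes nearest to Fkbp5 were Ccng2 (0.26), Pik3ip1 (0.28) and Abtb1 (0.29), all lower in SPOP_CKI with log2 fold changes of -1.62, -1.85 and -1.86. Those nearest to Nr3c1 were Cyb5b, Mynn and Zfp975 (0.28 each), none of which passed the test (limma, adjusted p = 0.0887, 0.292 and 0.162). Genes picked by likeness over these libraries share the group difference of the gene they were matched to, so their tests add no support.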
